A study of Homo sapiens with 19 samples.

Results

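MIF, DDT, TPT1, EBPL, CSNK2B, TMSB4X, TMSB10, PFN1, CFL1 and PPIA are 10 of the 19942 protein-coding genes measured in SH-SY5Y cells, a human neuroblastoma line. MIF, TPT1, EBPL and CSNK2B were picked from results of these data. The other 6 were picked as short mRNAs of high level. For the first 4 genes, their abundance in stress granule (SG) cores, their rRNA-depleted values and their eCLIP values are therefore descriptions, and no test is attached to the SG values of any of the 10. All members were found by gene ID or transcript ID in every table.

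Stress granules form when translation initiation is blocked, as by sodium arsenite (AS), and mRNAs released from ribosomes condense with proteins such as G3BP1 and G3BP2. Long mRNAs with much untranslated or ribosome-free sequence are known as the usual residents of these condensates, while short housekeeping mRNAs tend to stay in the cytosol. Most of the 10 genes encode a small protein that cells of many kinds carry in large amounts or as a household enzyme subunit. An mRNA of the 5′ terminal oligopyrimidine (TOP) class starts with a C and an unbroken run of C or T, and its translation follows nutrient and stress signalling.

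In 5 poly-A libraries, 1 of each kind, RNA was measured in cells given control siRNA (siCtrl), G3BP1 siRNA (siG3BP1) or G3BP2 siRNA (siG3BP2), in cleared lysate of AS-treated cells (Total) and in SG cores pulled from such lysate with an anti-G3BP1 antibody (SG). rRNA-depleted RNA came from 1 untreated and 1 AS-treated culture, the latter labelled 500 µM for 1 h. For eCLIP, in which UV light crosslinks RNA to the protein before immunoprecipitation, G3BP1 and G3BP2 were each precipitated in 2 libraries from untreated and 2 from AS-treated cells. The labels of the eCLIP, SG and knockdown samples all carry another AS concentration, untreated and siRNA samples included, while the study's methods describe 1 dose, that of the rRNA-depleted sample, and no AS in the knockdown. These siRNA cells are taken here as unstressed on that basis. The cores were pulled through G3BP1 alone, and each gene was silenced with 1 siRNA.

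Markers of the cell line were present. Of 12 genes that mark noradrenergic neuroblastoma, 11 were above 1 TPM (a level per transcript length, scaled to the same total in each library) in each of the 5 libraries, with TH below it throughout. Of 6 markers of blood, liver, stroma, endothelium and skin, only COL1A1 passed 1 TPM. G3BP1 was at 18.7 TPM in siCtrl and 5.996 TPM in siG3BP1, and G3BP2 at 38.1 TPM in siCtrl and 11.4 TPM in siG3BP2.

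The working name of the group holds only in part. The canonical transcripts, the 1 per gene that GENCODE marks as representative, are 461 to 4548 nt long, with a median of 868 nt, against a median of 3282 nt over 13520 classified genes. TPT1, with 4548 nt, and PPIA, with 2237 nt, have long canonical transcripts. In untreated rRNA-depleted RNA, however, 3503 reads lay on a 764-nt TPT1 transcript and 3910 on the canonical one that shares its exons, a share of 89.6%. For PPIA, 3737 reads lay on an 818-nt transcript and 3969 on the canonical transcript, a share of 94.2%. The transcript with the highest value, called the leading one below, was 461 to 967 nt long for each of the 8 genes with a value above 0. A read was counted for every transcript it overlaps and the count was divided by length. Of transcripts with the same reads, the shortest therefore takes the highest value, which does not show which of them is expressed. Levels in siCtrl ran from 77.5 TPM for EBPL, rank 1521 of 19942, to 2105 TPM for TMSB10, rank 31. With the longest annotated transcript limited to 1500 nt and the level to above 100 TPM in siCtrl, only MIF, TMSB10 and PFN1 meet a plain definition of short and abundant.

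The transcript starts are shown first, because TPT1 is the textbook member of the TOP class in this group. Each line holds 15 bases before and 15 bases from the RefSeq start (GRCh38.p14), 5′ to 3′ on the gene's strand. Capitals mark a C at the start followed by at least 4 more C or T.
TPT1, chr13:45341169-45341198, minus strand: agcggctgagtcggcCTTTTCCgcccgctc
TMSB10, chr2:84905641-84905670, plus strand: gggcgccgctcttttgtttcttgctgcagc
PPIA, chr7:44796666-44796695, plus strand: ggccaggctcgtgccgttttgcagacgcca
MIF, chr22:23894368-23894397, plus strand: aaaaggcgggaccacagtggtgtccgagaa
TPT1 starts with an unbroken run of 7 such bases. It was the only one of the 10 with a run of this kind at the RefSeq start. Of 15345 protein-coding genes with a RefSeq start in the table, 714 (4.65%) had one, and of 69 cytosolic ribosomal protein genes 44 (63.8%).

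The second set of sequences concerns the binding motif. The study names a palindrome as the leading G3BP motif in its eCLIP peaks, searched here in its DNA forms CCAGGCTGG and CCAGCCTGG, which are reverse complements of each other, on the sense strand. Of the canonical transcripts of the 10 genes, 2 held either form, against 28.0% of 19845 protein-coding genes. TPT1 held 4 sites, of which 1 is printed with 10 bases on both sides and the motif in capitals.
TPT1, transcript bases 2294 to 2302: gccatgtggcCCAGGCTGGtctgaaaact
All 4 lie in the 3′ UTR of the long transcript. The 764-nt TPT1 transcript held 0 matches, as did the leading transcript of each of the other 7 genes with a value above 0. In the longest annotated transcripts, 4 of the 10 genes held either form, against 35.5% of all genes. The short motif GGAT was in the canonical transcripts of 9 of 10 members and of 98.2% of genes, with MIF as the member without it. A match in these letters is no proof of binding.

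The members are compact. Their coding sequences span 132 to 645 nt, with a median of 457.5 nt, against a median of 1377 nt over the classified genes. Their 3′ UTRs had a median of 274 nt against 1283 nt, and their 5′ UTRs a median of 79.5 nt against 140.0 nt. SG-depleted genes as a class, 1274 in the annotation, had medians of 571.5 nt for the coding sequence and 318 nt for the 3′ UTR. GC content of the canonical transcripts ranged from 43.7% for TPT1 to 65.9% for MIF, around a median of 53.3%. MIF and its homologue DDT share 52.3% of 344 aligned coding bases, and TMSB4X and TMSB10 72.0% of 132.

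All 10 mRNAs were lower in SG cores than in Total, by 3.26 to 25.6 times on the TPM + 1 scale. EBPL and MIF lay at the far end and CFL1 nearest to the rest of the transcriptome. All 10 thereby fell into the SG-depleted class, defined as a fold of TPM + 1 below 0.5 with more than 1 TPM in Total, which held 9.45% of the 13560 genes that could be classified. Since 4 members were picked from results of these data and 6 as short abundant mRNAs, nothing is read from that count. There was 1 library of each kind, so no test of these differences can be made from the libraries. By RT-qPCR of SG RNA in independent experiments, the study reports EBPL, MIF and TPT1 as not abundant in SGs. This was done in SH-SY5Y and other neuroblastoma cells. The levels are relative within each library: the median SG to Total ratio of 10958 genes above 1 TPM in both was 2.78 (1.47 on the log2 scale), and the log2 folds of the members differed from that median by -6.15 (EBPL) to -3.18 (CFL1). In bulk RNA, less of an mRNA per cell and fewer cells carrying it cannot be told apart.

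**Figure D1:**
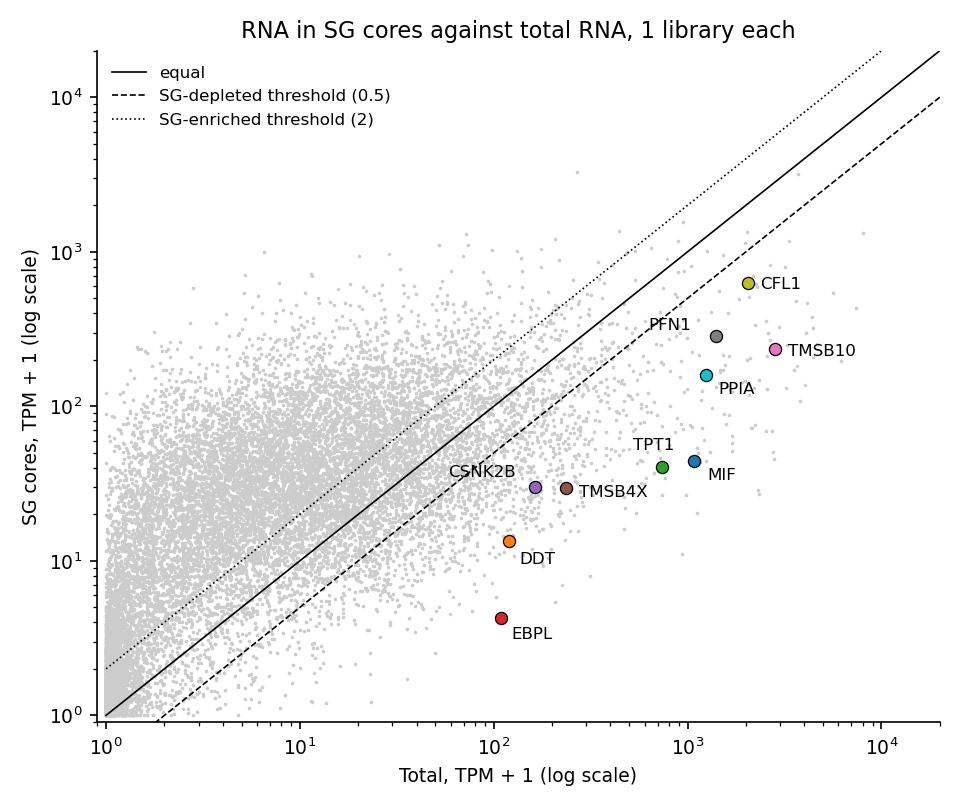
Level of each gene in SG cores (vertical axis, TPM + 1) against Total (horizontal axis, TPM + 1), both log scales, 1 library each; grey points are genes, coloured points the 10 members, lines mark equality and the thresholds of 0.5 and 2. All 10 members lie below the dashed line, with EBPL at 109 TPM in Total and 3.27 TPM in SG the lowest in the cores.

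MIF and DDT are related tautomerases, MIF being secreted as a cytokine and DDT binding the same receptor. MIF (ENSG00000240972, chr22:23894383-23895227, plus strand, 3 exons) was at 870.3 TPM in siCtrl, 1095 in siG3BP1, 972 in siG3BP2, 1085 in Total and 43.2 in SG. DDT (ENSG00000099977, chr22:23970542-23980525, minus strand, 3 exons) was at 116, 102, 98.8, 119 and 12.5 TPM in the same order. The SG library was the lowest of the 5 for both, and the other 4 lay close together. Relative to Total, SG was 24.6 times lower for MIF and 8.89 times lower for DDT. In the SG library MIF ranked 4827 of 19942, against 93 in Total.

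TMSB4X and TMSB10 encode thymosins, which hold actin monomers in reserve. TMSB10 (ENSG00000034510, chr2:84905656-84906671, plus strand) was the most abundant of the 10, at 2105 TPM in siCtrl, 2374 in siG3BP1, 2620.3 in siG3BP2, 2825 in Total and 232 in SG. TMSB4X (ENSG00000205542, chrX:12975110-12977227, plus strand) was at 287, 315, 352, 235 and 28.4 TPM. SG was again the lowest library of both, 12.1 times below Total for TMSB10 and 8.03 times for TMSB4X. Of the exon windows of TMSB4X, 89.0% recur elsewhere on the primary chromosomes, so reads may be shared with copies of it and its level is uncertain.

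PFN1, which feeds actin monomers to growing filaments, and CFL1, which severs old ones, complete the actin group. PFN1 (ENSG00000108518, chr17:4945652-4949061, minus strand) was at 1321 TPM in siCtrl, 1387 in siG3BP1, 1481 in siG3BP2, 1393 in Total and 284 in SG. CFL1 (ENSG00000172757, chr11:65823022-65862026, minus strand) was at 1977, 2092, 2130.0, 2046 and 628 TPM. These were the members least depleted together with CSNK2B, 4.90 times lower in SG for PFN1 and 3.26 times for CFL1. CFL1 still ranked 51 in the SG library, against 47 in Total.

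PPIA encodes cyclophilin A, the prolyl isomerase that cyclosporin binds. PPIA (ENSG00000196262, chr7:44796680-44824564, plus strand) was at 1012 TPM in siCtrl, 1102 in siG3BP1, 1013 in siG3BP2, 1249 in Total and 158 in SG. TPT1 encodes a translationally controlled protein tied to growth. TPT1 (ENSG00000133112, chr13:45333471-45341284, minus strand, 6 exons) was at 580.4, 574, 572, 741 and 39.7 TPM. SG was 7.85 times below Total for PPIA and 18.2 times below it for TPT1.

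CSNK2B encodes the regulatory subunit of protein kinase CK2, and EBPL a relative of the sterol isomerase EBP. CSNK2B (ENSG00000204435, chr6:31665227-31670343, plus strand, 7 exons) was at 131 TPM in siCtrl, 132 in siG3BP1, 118 in siG3BP2, 163 in Total and 29.1 in SG. EBPL (ENSG00000123179, chr13:49660674-49691486, minus strand, 4 exons) was at 77.5, 92.2, 86.6, 109 and 3.27 TPM. SG was 5.45 times below Total for CSNK2B and 25.6 times below it for EBPL, the least abundant member.

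Within the group the degree of depletion was set beside 10 measures of the genes. Over the 10 genes the log2 fold of SG against Total had a Spearman rho of 0.21 with canonical length, 0.12 with the 3′ UTR, 0.15 with GC content and 0.42 with the level in Total. Gene span (0.24), exon number (0.13), the 5′ UTR (0.27), the coding sequence (0.10), the leading transcript (0.31) and the level in siCtrl (0.42) gave values in the same range. These are descriptions over 10 genes that share 2 libraries, and Total is part of both sides of the correlation with the level in Total.

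The members were set beside the other short abundant mRNAs, 321 protein-coding genes with a longest transcript of at most 1500 nt and more than 100 TPM in siCtrl, members removed. Of these, 268 (83.5%) were SG-depleted, 49 were in neither class and 4 were SG-enriched. Among the 837 genes above the same 100 TPM limit with a longer transcript, 276 (33.0%) were SG-depleted and 149 were SG-enriched. Levels were not matched between these classes. The median log2 fold was -2.22 in the short class, -0.41 in the long one and -3.08 over the 10 members. EBPL and MIF lay below all but 11 and 12 of the 321 genes, and CFL1 above 209 of them. At the threshold itself, FAM174C had a fold of 0.49971 and BOLA1 a fold of 0.50025.

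**Figure D2:**
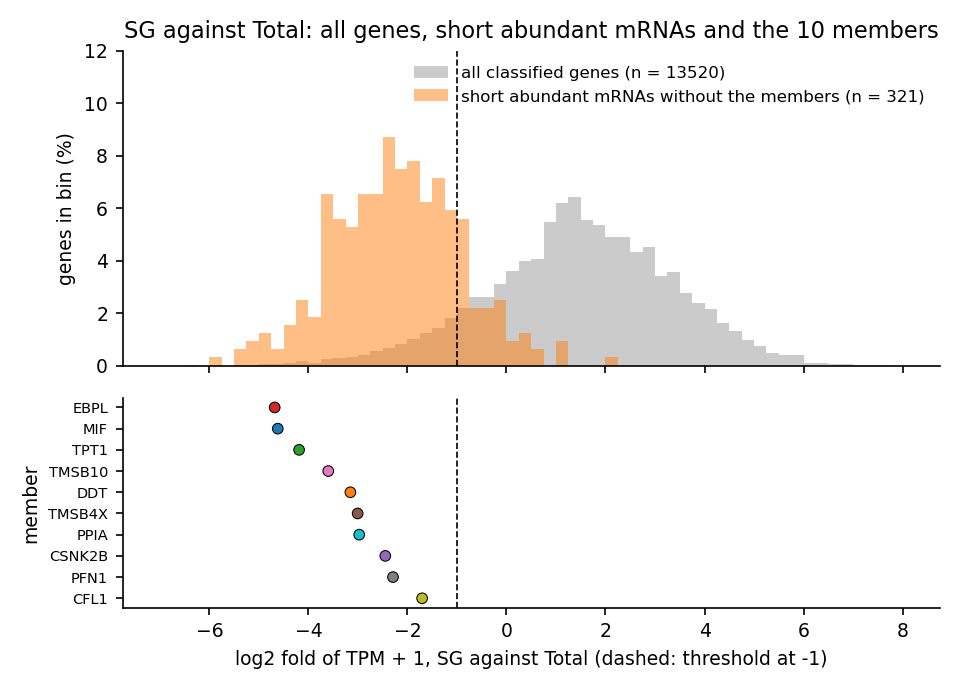
Upper panel: share of genes per bin of log2 fold of TPM + 1, SG against Total, for all 13520 annotated classified genes (grey) and the 321 short abundant mRNAs without the members (orange); lower panel: the 10 members, with the dashed line at the SG-depleted threshold. The members run from -4.68 for EBPL to -1.70 for CFL1, inside the range of the short abundant class.

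The genes with the nearest profile over the 5 libraries, by Euclidean distance on log2(TPM + 1) among genes above 10 TPM in at least 1 library, were mostly ribosomal protein genes. For MIF these were RPS28 at a distance of 0.25, RPS23 at 0.28 and RPS25 at 0.68. RPS28 had 837 TPM in siCtrl, 1163 in Total and 42.8 in SG. For TPT1 they were RPS18 at 0.27, the complex I subunit gene NDUFS5 at 0.42 and RPL21 at 0.51. RPS18 had 539 TPM in siCtrl, 763 in Total and 33.4 in SG.

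The relatives of the members did not share one fate in the cores. Counts of such lists are read against all classified genes, of which 9.45% were SG-depleted and 62.9% SG-enriched. In the list of CK2 subunits, CSNK2B was the only SG-depleted one of 4, and the catalytic subunit genes CSNK2A1 and CSNK2A2 were SG-enriched, with log2 folds of 1.66 and 1.61. CSNK2A3, a copy of CSNK2A1 that may share its reads, had 2.22. CSNK2A1 was at 19.2 TPM in Total and 62.8 in SG. In the list of EBP family and late sterol synthesis genes, 2 of 14 were SG-depleted, EBPL and the squalene synthase gene FDFT1 (log2 fold -1.72), and 6 were SG-enriched, among them the sterol reductase gene LBR with 3.34 and the squalene epoxidase gene SQLE with 2.45. EBP itself was in neither class, at 45.8 TPM in Total and 27.7 in SG.

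Of 40 classified actin monomer and filament turnover genes, 7 (against 9.45% of all genes) were SG-depleted, 25 were in neither class and 8 (against 62.9%) were SG-enriched. Another thymosin, TMSB15A, had the lowest fold of the list, with 157 TPM in Total and 10.9 in SG, a log2 fold of -3.73. The slingshot phosphatase genes SSH1 and SSH2, which activate cofilin, had the highest, 4.33 and 4.30. Without the 4 members, 3 of 36 genes were SG-depleted and the median log2 fold was 0.01, against 1.51 over all classified genes. PFN2 and CFL2, the neural and muscle paralogues of PFN1 and CFL1, were in neither class, with log2 folds of -0.40 and 0.04, while the cofilin relative DSTN was SG-depleted with -2.06.

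Among 25 cyclophilins and small FKBPs, 10 (against 9.45% of all genes) were SG-depleted, 9 were in neither class and 6 (against 62.9%) were SG-enriched. Their median log2 fold was -0.35, against 1.51 over all classified genes. FKBP3 followed PPIA with -2.81, and PPIB, the cyclophilin of the endoplasmic reticulum, had -2.11. The large cyclophilin-domain genes NKTR and RANBP2 stood at the other end with 4.59 and 5.35. Among 19 genes with TOP mRNAs outside the ribosome, 13 (against 9.45%) were SG-depleted, with a median of -1.55. TPT1 was the lowest, followed by the elongation factor subunit EEF1B2 with -3.16, and the highest were EIF4B with 2.26 and the importin IPO5 with 1.99. Of 6 classified genes of the MIF family and its receptors, MIF and DDT were SG-depleted and 3 (against 62.9%) were SG-enriched, CXCR4 having a log2 fold of 1.53. The lists were put together with results of these data known, so these counts are descriptions.

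Silencing of either G3BP left the levels of the 10 mRNAs within 1.26 times of the control. A call required a ratio above 2 or below 0.5 with more than 1 TPM in the higher library. None of the 10 was called after siG3BP1, where 6.22% of 12280 genes were, and none after siG3BP2, where 8.05% of 12229 genes were. With shares this low a count of 0 among 10 genes is near that of all genes. Levels were not matched, so nothing is read from these counts. After siG3BP1 the ratios ran from 0.876 for DDT to 1.26 for MIF, with a median of 1.07. After siG3BP2 they ran from 0.852 for DDT to 1.24 for TMSB10, with a median of 1.10.

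The ratio of the median gene was 0.941 after siG3BP1 and 0.919 after siG3BP2. Against that median, 9 of 10 members were higher after siG3BP1 and 8 of 10 after siG3BP2, whereas 8 and 7 had a ratio above 1. TPT1 was the member between the 2 limits in both, at 0.990 and 0.986. DDT was the only member below the median in both knockdowns. These are single libraries that share 1 control, and no spread between cultures is known for them. In the 6 gene lists described above, 1 actin gene and 1 cyclophilin or FKBP gene were called lower after siG3BP1, and no gene of any list was called after siG3BP2.

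**Figure D3:**
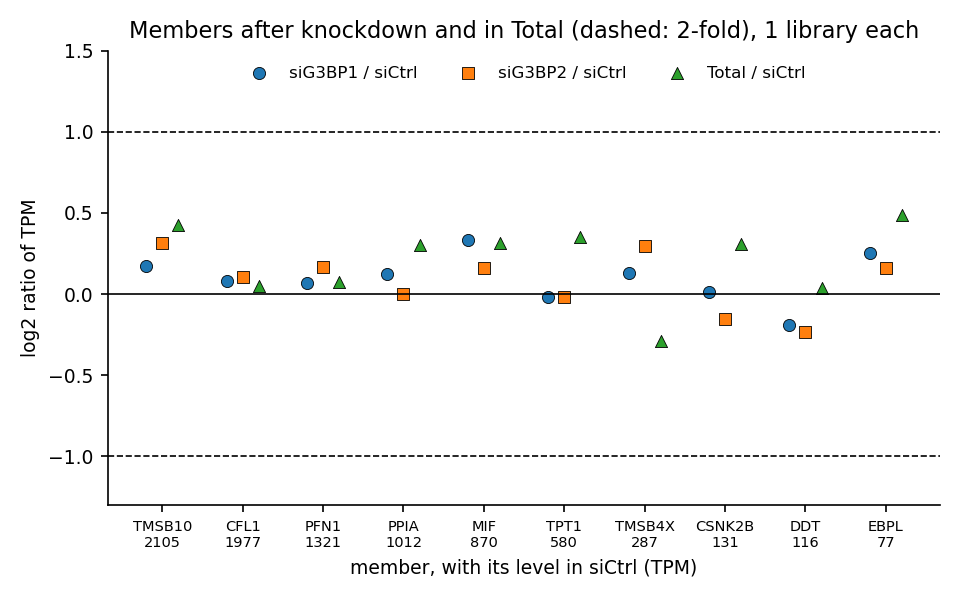
log2 ratio of TPM (vertical axis) of each member in siG3BP1, siG3BP2 and Total against siCtrl, ordered by the level in siCtrl given under each name, 1 library each; dashed lines mark a 2-fold difference. All 30 points lie between -0.29 and 0.49, inside the dashed lines.

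In the cleared lysate of AS-treated cells the 10 mRNAs stayed near their control level. None of the members was past 2-fold in Total against siCtrl, against 29.6% of 12173 genes, of which 3311 were lower and 288 higher. Their ratios ran from 0.819 for TMSB4X to 1.40 for EBPL. The 29.6% covers genes of all levels above 1 TPM, not matched to the members. In the lists above, 4 of 42 actin genes, 2 of 25 cyclophilins and FKBPs and 1 of 14 sterol genes were past 2-fold lower. Past 2-fold higher were 1 of the 25 and 1 of the 19 TOP genes. The MIF and CK2 lists held 0 such genes. The lists include members. Steadiness in Total is therefore not read as particular to the 10. The median ratio of all genes was 0.750, and all 10 members lay above it, 9 of them above 1. AS treatment, lysis and clearing, and the absence of siRNA differ together between these libraries and cannot be told apart.

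rRNA-depleted RNA of untreated and AS-treated cells gave a second view of arsenite. The deposited values behave as reads scaled by transcript length and by library size (RPKM), with a read counted for every transcript it overlaps, and were summed over the transcripts of a gene. Each column held 1 library, with values in steps that correspond to 13291959 reads in untreated and 11281587 in AS-treated cells. Of the 10 genes, 7 had a ratio of AS to untreated between 1.06 and 1.35, 1 was far lower after AS, and MIF and DDT were listed at 0 in both libraries.

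The summed values of PPIA were 2619.8 without AS and 3029.5 after it, those of CFL1 2088 and 2346, and those of TPT1 2185 and 2624. PFN1 had 443 and 505, TMSB10 354 and 375, TMSB4X 117 and 158, and EBPL 49.5 and 61.4. The untreated library was the lower one for each of these 7. The median ratio of 11944 genes above 1 in both libraries was 1.21, so relative to the typical gene only TMSB4X, with 1.35, and EBPL, with 1.24, were higher. The leading transcript of TPT1 held 3503 reads without AS (95% exact Poisson interval 3388 to 3621) and 3587 after it (3471 to 3706). For TMSB10 these were 2171 (2081 to 2264) and 1949 (1863 to 2037). The intervals cover counting error only. These counts are not scaled to library size, which was smaller after AS: the scaled value of TMSB10 was higher after AS, at 375 against 354.

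CSNK2B stood apart. Its summed value was 154 without AS and 9.25 after it, 16.7 times lower. Its leading transcript, of 908 nt, held 257 reads without AS (95% exact Poisson interval 227 to 290) and 12 reads after it (6.20 to 21.0). All 9 of its transcripts above a value of 1 without AS were lower after it, with ratios of 0.036 to 0.064, and they share most of their reads. It was the only member called past 2-fold lower, against 1.41% of 12712 genes. No member was past 2-fold higher, against 7.63% of genes. In Total, also from AS-treated cells, CSNK2B was at 163 TPM, 1.24 times its level in siCtrl, so the libraries do not show 1 direction for it.

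**Figure D4:**
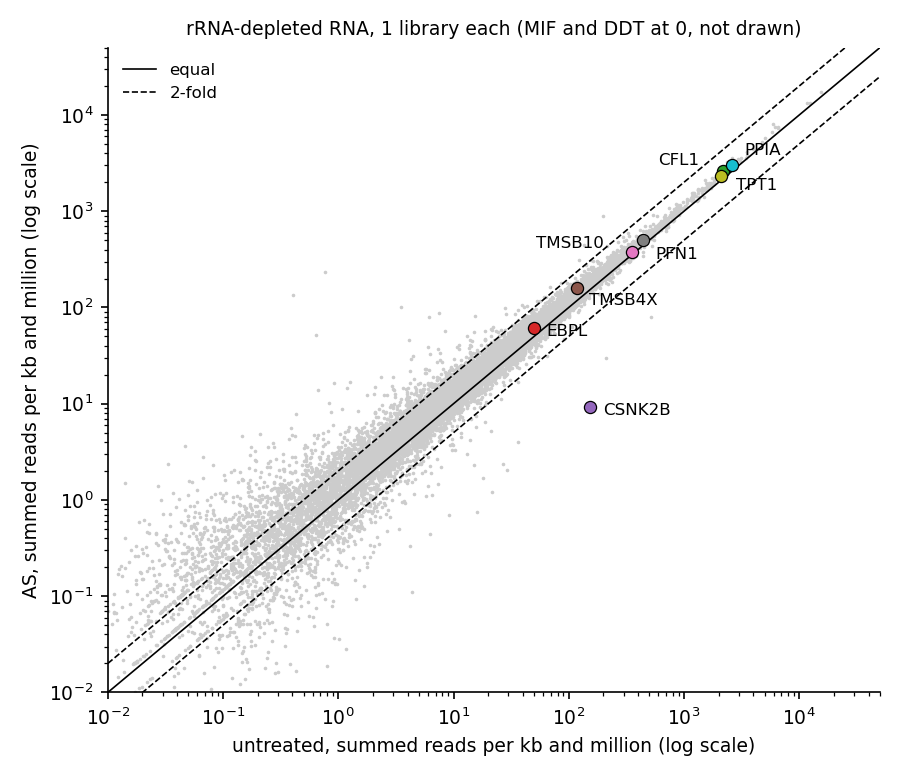
Summed length- and depth-scaled reads (RPKM) of each gene in AS-treated (vertical axis) against untreated cells (horizontal axis), rRNA-depleted RNA, 1 library each, log scales; grey points are genes above 0 in both, coloured points the members, the solid line equality and dashed lines 2-fold. CSNK2B, at 154 and 9.25, is the only member outside the dashed lines.

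MIF, DDT and CSNK2B share a feature of the genome build. Every exon window of 32 bases of MIF and DDT also stands on an alternate contig of GRCh38, and every one of CSNK2B on at least 1 of 6 such contigs. For the other 7 members the share on alternate contigs was 0% to 6.96%. Elsewhere in the genome, outside the alternate contigs, 52.8% of the DDT windows recur as well, against 0% for MIF and CSNK2B. For the other 7 this share ran from 9.35% for TPT1 to 89.0% for TMSB4X, with 33.7% for PPIA and 33.3% for EBPL. Reads of DDT and of these 7 may thus be shared with such copies too. Of 137 genes above 10 TPM in siCtrl with more than 50% of their transcript windows on alternate contigs, 27 (19.7%) were listed at 0 in both rRNA-depleted libraries, against 37 (0.538%) of 6872 other genes. Among those above 1 in either library, 20 of 93 (21.5%) were below 0.5 times the untreated value after AS and 24 (25.8%) above 2 times, against 29 (0.428%) and 152 (2.24%) of 6779. Whether the genome used by the authors held these contigs is not given in the sources used here, and their part in the values of the 3 genes was not tested.

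Of the genes within 100000 bases of CSNK2B, 12 besides it were above 1 TPM in siCtrl, and 5 of these were listed at 0 in both rRNA-depleted libraries. The nitric oxide pathway gene DDAH2 went from 26.9 without AS to 2.34 after it, and the chaperone gene BAG6 from 4.20 to 21.7, the opposite direction. Both were chosen after their values were seen. Around MIF and DDT, 6 other genes were above 1 TPM in siCtrl, and of the 5 with an rRNA-depleted value 2 were listed at 0 in both libraries, one of them the chromatin remodeler gene SMARCB1 with 27.0 TPM in siCtrl. A read-through gene of the same strand, ENSG00000251357, overlaps MIF and had 428 TPM in siCtrl, 539 in Total and 19.3 in SG, so reads of the pair may be split between them. The same holds for CSNK2B and ENSG00000263020, a protein-coding gene that overlaps it on the same strand. That gene had 41.3 TPM in siCtrl, 47.0 in Total and 12.7 in SG.

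In eCLIP the members ranged from values above 0 in all 8 libraries to 0 in all 8. Each deposited value behaves as the log10 of a count-like whole number to which 1 was added, and it is not divided by length. EBPL, PPIA, CFL1 and TPT1 were above 0 in all 8 libraries, PFN1 in 7 and TMSB4X in 5. TMSB10 and CSNK2B were above 0 in 2 libraries each and DDT in 1. MIF was listed at 0 in all 8, with its mRNA at 870.3 TPM in siCtrl. By RNA immunoprecipitation the study found MIF less abundant with G3BP proteins than RNAs holding eCLIP peaks. Genes without mRNA could have high values: CFTR, at 0 TPM in siCtrl, had a median of 3.70 over the 8 libraries. PRSS21, also at 0 TPM, had a median of 0. Both were chosen after their values were seen. A value is therefore not read as binding of the mRNA.

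EBPL, the member with the lowest mRNA level, had G3BP1 values of 2.80 and 2.14 without AS and of 2.84 and 2.31 after it. Its G3BP2 values were 2.86 and 2.30, then 2.86 and 2.43. Replicate 1 was higher than replicate 2 in all 4 groups, by more than any difference between treatments. PPIA had 2.63 and 2.31, then 2.30 and 2.12 for G3BP1, and 2.66 and 2.26, then 2.68 and 2.39 for G3BP2. CFL1 had 2.13 and 1.67, then 2.48 and 1.65 for G3BP1, and 2.05 and 1.96, then 2.46 and 2.11 for G3BP2. For PPIA with G3BP1 the highest AS value, 2.30, lay just below the lowest untreated one, 2.31. For CFL1 with G3BP2 both AS values lay above both untreated ones, and in the other series the treatments overlapped. How often duplicates separate in this way was not counted over all genes. Nothing is therefore read from such cases, here or for PFN1 below.

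TPT1 had 1.84 and 0.70, then 1.40 and 1.57 for G3BP1, and 1.63 and 1.23, then 1.61 and 1.41 for G3BP2. Its untreated duplicates enclosed the AS values in both series. PFN1 had 0.48 and 0.70, then 1.20 and 0 for G3BP1, and 0.70 and 0.30, then 1.04 and 0.85 for G3BP2, the latter without overlap. TMSB4X ran from 0 to 1.54, with a 0 in 3 of the 4 groups. A value of 0.70 stands for a number near 4, so the values of TMSB10, at most 0.70, and of DDT, at most 0.60, rest on a handful of counted items.

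**Figure D5:**
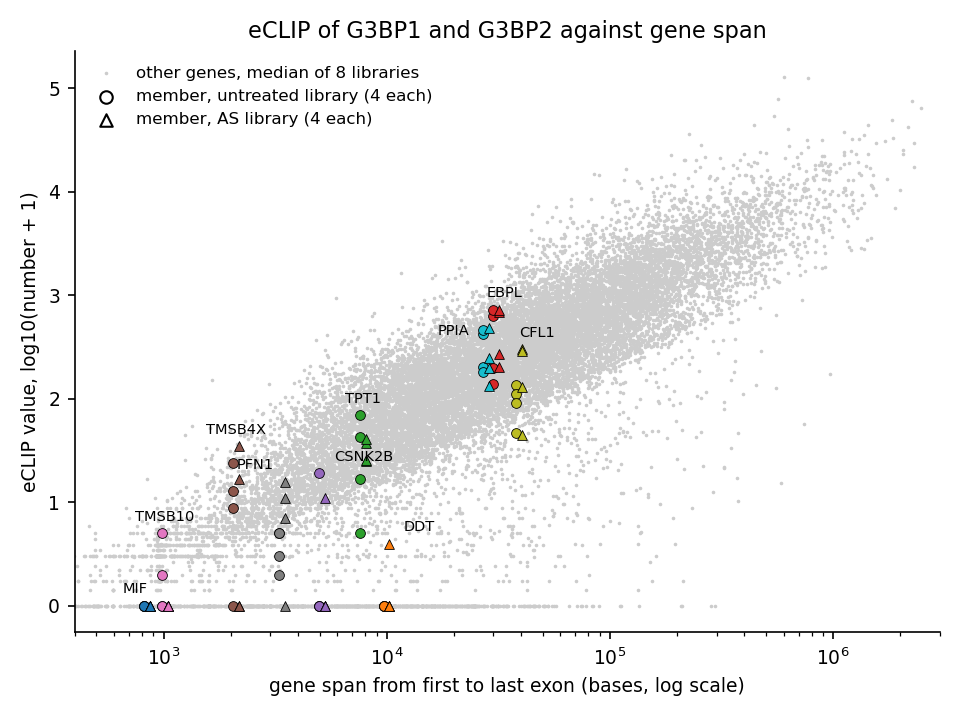
eCLIP value (vertical axis, log10 of number plus 1) against the genomic span of the gene (horizontal axis, bases, log scale); grey points are other genes at the median of 8 libraries, coloured circles and triangles the members in the 4 untreated and 4 AS libraries, moved slightly apart along the axis. EBPL, PPIA and CFL1, with spans of 27885 to 39005 bases, lie between 1.65 and 2.86, and MIF, with 845 bases, at 0 in all 8.

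Over the 10 genes the median eCLIP value had a Spearman rho of 0.71 with gene span, introns included, and of -0.08 with the level in siCtrl. Over the 7 members other than MIF, DDT and CSNK2B these were 0.86 and -0.57. Over 11960 genes above 1 TPM in siCtrl the values were 0.83 and -0.21. These are descriptions, since all points share the same libraries and a longer gene offers more sequence to be counted.

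The eCLIP values were then read against gene span. In each library the eCLIP value was fitted on log10 of gene span over genes above 0, and the departure from that line was taken. Of the 80 member values, 31 were 0 and have no departure, and the other 49 had a median departure of -0.04 on the log10 scale, 26 of them below the line. The libraries' medians ranged from -0.19 to 0.38, the last in AS G3BP1 replicate 2 with only 4 members above 0. With genes at 0 kept in the fit, 51 of the 80 values lay below the line and their median was -0.15. EBPL lay above the line in 8 of 8 libraries with a median departure of 0.35, and PPIA (0.21) above it in 7 of 8. CFL1 (-0.28) and PFN1 (-0.37) lay below it in every library in which they were above 0. DDT, with a span of 9984 bases, was the farthest below, at -1.35 in its only library. With the longest transcript in place of the span, the median departure was -0.43. In the fit on span, the short abundant genes without the members (314 with a departure) had a median of -0.07, and the 1260 SG-depleted genes with a departure one of 0.003.

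No member had a detectable change in eCLIP after AS. With limma and Benjamini-Hochberg adjustment over all genes above 0 in at least 2 of 4 libraries, 0 of 6 tested members were called for G3BP1, against 0% of 18888 genes. For G3BP2 0 of 7 were called, against 0.0105% of 19035 genes, and no member had an unadjusted p below 0.05 for either protein. For G3BP1 the changes on the log10 scale ran from -0.40 ± 0.60 (SE) for TMSB4X to 0.22 ± 0.63 for TPT1, and for G3BP2 from -0.12 ± 0.44 for CSNK2B to 0.45 ± 0.44 for PFN1. The median change of all tested genes was -0.115 for G3BP1 and -0.075 for G3BP2, and 4 of the 6 and 6 of the 7 tested members lay above that median. The 95% intervals were wide: for EBPL -1.06 to 1.27 with G3BP1 and -0.76 to 0.89 with G3BP2. These intervals hold the difference in depth between duplicates, which came to a median of 0.38 to 0.71. With the libraries scaled to the same total, again no member was called or had an unadjusted p below 0.05. The EBPL intervals were then -0.04 to 0.47 with G3BP1 and -0.08 to 0.36 with G3BP2, and the changes of PFN1 with G3BP1 and TMSB4X with G3BP2 turned from above to below 0, at -0.14 and -0.12.

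The responses of the 2 proteins were compared directly in a model over all 8 libraries, taken as independent. Same-numbered G3BP1 and G3BP2 libraries deviated together, with correlations of 0.47 untreated and 0.38 after AS. The SEs given here do not take this into account. The difference, G3BP2 minus G3BP1, was called for 0 of 8 tested members and 0% of 19259 genes, with no member at an unadjusted p below 0.05. It ran from -0.20 ± 0.61 (SE) for TMSB10 to 0.46 ± 0.67 for TMSB4X. Nothing in the labels says that the duplicates came from separate cultures, so these tests measure only the spread between the libraries.

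The same split by alternate contigs was made for eCLIP. Of the 137 genes with most of their windows on such contigs, 25 (18.2%) were listed at 0 in all 8 eCLIP libraries, against 19 (0.276%) of 6872 others. Of the 6 other genes around MIF and DDT above 1 TPM in siCtrl, 3 had at most 1 library above 0, and of the 12 around CSNK2B 8 did. SMARCB1, with a span of 51079 bases, was above 0 in only 2 of 8. The part of these contigs in the low eCLIP values of MIF, DDT and CSNK2B was not tested.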

How the data were processed

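Poly-A reads (knockdown, Total, SG) were mapped by the authors to GRCh38.p13 with HISAT2, and the deposited TPM came from StringTie with GENCODE annotation. For rRNA-depleted RNA the deposited column is headed TPM, but value times transcript length comes in steps of 1 read for 97.2% and 97.1% of values (within 0.01), so it was used as RPKM. The eCLIP values the authors deposited are log10 of a whole number plus 1; their pipeline used STAR, CLIPper peaks and an SMInput normalization, and which step the number reflects is not given in the sources used here. TPM and eCLIP carry no depth; numbers behind eCLIP differ up to several-fold between duplicates. SMInput libraries were not analysed here.

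The members and gene lists were chosen with earlier results of these data known. IDs were matched to GENCODE on GRCh38, another release than the authors'. Named besides the members were G3BP1 and G3BP2, the 2 largest and 2 smallest SG folds above 10 TPM in each list, and 3 profile neighbours of MIF and TPT1. Chosen after their values were seen were PFN2, CFL2, DSTN, PPIB, EBP, DDAH2, BAG6, SMARCB1, ENSG00000251357, ENSG00000263020, CFTR, PRSS21, TH and COL1A1, and FAM174C and BOLA1 at the threshold. The site of 1 motif match is not reported here. Coding identity came from a global alignment. eCLIP was tested with limma 3.58.1 (mean-variance trend, adjusted p threshold 0.05) in R 4.3.3; the rest used Python 3.11.15, pandas 2.3.3, scipy 1.17.1 and biopython 1.88. The eCLIP test was tried on simulated data with known changes. Alternatives covered pseudocounts, thresholds, scaling, filters, the transcript used and leaving out each eCLIP library.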

Additional observations from a re-analysis of the deposited data

How the results depend on the processing

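The SG-depleted count was 10 of 10 with a pseudocount of 0.1, with SG rescaled to a median ratio of 1 and without a minimum level, 9 of 10 with a fold below 0.25 (CFL1 being outside), and 7 of 7 without MIF, DDT and CSNK2B. The last setting, chosen after seeing the data, left 0 of 7 members past 2-fold after AS in rRNA-depleted RNA, where CSNK2B alone had been called. The median eCLIP departure was -0.43 with the longest transcript in place of the gene span, and from -0.10 to -0.03 when each library was left out in turn. It was -0.15 with genes at 0 in the fit and -0.01 without MIF, DDT and CSNK2B, both chosen after seeing the data. No member was called under any knockdown, Total or eCLIP alternative, including a replicate block, which gave 0 calls among members for G3BP1, for G3BP2 and for their difference. The replicate numbers mark no stated pairing: deviations of same-numbered AS and untreated libraries correlated at 0.15 for G3BP1 and 0.06 for G3BP2, and those of same-numbered G3BP1 and G3BP2 libraries at 0.47 untreated and 0.38 after AS. Over all genes, G3BP2 had 2 calls in the fit used, 0 with the block or equal totals, 11 without the trend and 0 to 12 when a library was left out. With 1 library per RNA-seq condition the ratios have no replicate check in these data. For EBPL, MIF and TPT1 in SGs the study gives RT-qPCR from independent experiments.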
